A study of Zea mays with 6 samples.

Results

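The tubulins are the building blocks of microtubules, and 45 of the 17734 probe sets on an Affymetrix maize genome array were taken as tubulins here. Each probe set is a handful of short probes designed on a single transcript. The set comprised tub6, a beta tubulin gene, together with every probe set in the authors' comparison table (12255 probe sets) whose gene symbol was tub or tua with a number, or whose gene title or target description held the word tubulin. The arrays measured root RNA of maize (Zea mays, cultivar Nongda108) at the reproductive stage, with 3 samples of maize intercropped with peanut (cultivar Luhua14) and 3 of maize monocropped. All plants grew in a greenhouse in a calcareous sandy soil that had received basal fertilizer, and 1 array was hybridised per sample. The peanut monoculture named in the labels was not analysed here. The sources used here do not say whether each sample was a separate plant or pot, so the spread on which the p-values rest may be technical.

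Alpha and beta tubulin bind each other as a pair, and these pairs polymerise into microtubules. Gamma tubulin sits at the sites where a microtubule starts to grow. In growing plant cells the microtubules beneath the plasma membrane steer the enzyme complexes that spin cellulose into the wall, and other arrays form the spindle and the plate that separates daughter cells. Plants carry small families of near-identical alpha and beta genes, called isotypes, which differ in the tissues where they are most used.

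The 45 probe sets were not 45 genes. Of these, 21 were named by gene and stood for 12 genes, of which 6 were beta, 5 alpha and 1 gamma (TubG1). A further 20 carried a tubulin name only as the title of the transcript cluster they were designed from, and in the later annotation 17 of these had a cluster other than that of any of the 12 genes, while 3 had none. One had an alpha tubulin cluster title but is annotated as another gene, AN14, and 3 were described as similar to tubulin-related proteins. By the transcripts assigned to them, 24 probe sets shared a transcript with another member, and the 45 fell into 29 groups that shared none. Isotypes are near-identical in sequence and the letters s and x in a probe set name mark probes that also match other transcripts, so the signal of 1 isotype may include that of another. The rule could only reach probe sets at a signal of at least 50 on at least 3 arrays, since the authors' table was filtered so. All 45 met the same filter here, 43 of them on all 6 arrays, and 0 met it through the arrays of 1 group alone.

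Most tubulin probe sets had higher signals in intercropped than in monocropped roots, by amounts that passed no test. The mean log2 signal was higher in 39 of the 45 and lower in 6, and the median log2 difference (intercropped minus monocropped) was 0.17. Over all 13116 probe sets tested, 51.9% were higher and the median was 0.01. Leaving out the 4 probe sets of tub6, which was chosen for its difference, 35 of 41 were higher and the median was 0.16. Limma (adjusted over all probe sets tested, called at an adjusted p under 0.05) called 0 tubulins, and also 0% of all probe sets, whose lowest adjusted p was 0.129. Without intercropped replicate 1 limma called 34 probe sets, 0 of them tubulins. At an unadjusted p under 0.05 there were 7 higher and 2 lower members apart from tub6, against 5.60% higher and 5.51% lower over all probe sets. For 8 of these 41, all 3 intercropped arrays lay above all 3 monocropped arrays, beside 8.29% of all probe sets, and for 2 the reverse held, beside 8.69%. Of the 7 and of the 8, 2 are probe sets that share a transcript with tub6, described below. In tissue RNA, fewer cells of a type and less RNA per cell cannot be told apart.

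**Figure D1:**
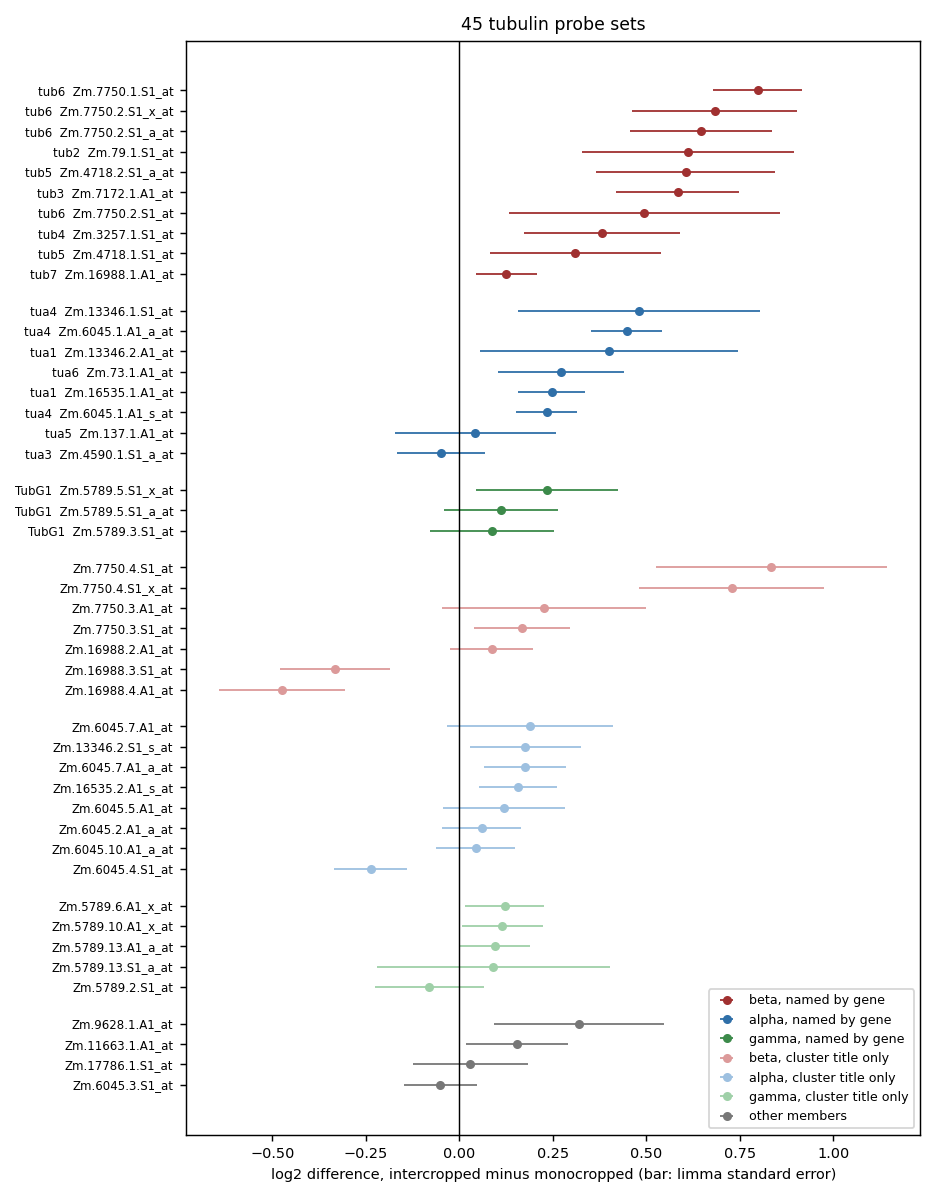
Log2 difference in signal, intercropped minus monocropped, of each of the 45 tubulin probe sets (points) with its limma standard error (bars), grouped by tubulin class and by how the probe set was named. All 10 beta probe sets named by gene lie to the right of 0, while those named only by a cluster title spread from -0.47 to 0.83.

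Beta tubulins named by gene made up 10 probe sets, and all 10 were higher in intercropped roots. Their median log2 difference was 0.59, with a range of 0.13 to 0.80. Without the 4 probe sets of tub6 it was 0.48 over 6. Taking only the brightest probe set of each gene it was 0.48 over the 6 beta genes and 0.38 over the 5 other than tub6.

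The gene tub6 was read by its brightest probe set at signals of 1483, 1465 and 1585 on the intercropped arrays, against 918, 760 and 941 on the monocropped arrays. The 3 intercropped arrays lay close together, and the groups did not overlap. The mean was 1511 ± 64.8 in intercropped and 873 ± 98.9 in monocropped roots (SD, n = 3 each), a log2 difference of 0.80 ± 0.12 (SE), or 1.74-fold. These values are a description, because the gene was chosen for them. The authors' deposited table gives this probe set a score of 4.36, a fold change of 1.73 and a q-value of 9.06%.

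Another 3 probe sets read tub6 from a second design sequence, and they were less even among the arrays. The first of these had signals of 747, 591 and 565 in intercropped and 475, 320 and 427 in monocropped roots, and a log2 difference of 0.65. The second had 592, 489 and 420 in intercropped and 394, 236 and 316 in monocropped roots, and a log2 difference of 0.68. Both kept the groups apart, with intercropped replicate 1 highest and monocropped replicate 2 lowest. The dimmest had 286, 220 and 109 in intercropped and 173, 107 and 133 in monocropped roots, and a log2 difference of 0.49, and its groups overlapped because intercropped replicate 3 was the second lowest of the 6 arrays.

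The gene tub3 followed tub6 most closely among the tubulins. Its signals were 1317, 1331 and 1411 in intercropped roots, against 984, 704 and 1059 in monocropped roots. The intercropped arrays were again close together and all above the monocropped ones. The mean was 1353 ± 51.1 against 916 ± 187, a log2 difference of 0.58 ± 0.16 that limma did not call (adjusted p = 0.287).

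The gene tub2, listed in the array annotation as LOC542380 and in RefSeq as TUBB2, is a dim member with 239, 130 and 128 in intercropped roots and 121, 81.5 and 113 in monocropped roots. The groups did not overlap, but intercropped replicate 1 alone stood far above the rest. The log2 difference was 0.61 ± 0.28 (limma adjusted p = 0.492), and 0.31 without that array.

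The gene tub5 had 2 probe sets whose groups both overlapped. The brighter one had signals of 1714, 1375 and 1099 in intercropped roots, against 1395, 837 and 1164 in monocropped roots (log2 difference 0.31, limma adjusted p = 0.668). The dimmer one had 846, 673 and 563 in intercropped and 580, 331 and 475 in monocropped roots (log2 difference 0.60, limma adjusted p = 0.419). In both, intercropped replicate 1 was the highest array and monocropped replicate 2 the lowest. The difference of the brighter one was 0.15 without the first of these arrays and 0.11 without the other, and that of the dimmer one was 0.38 without monocropped replicate 2. RefSeq lists tub8 as another name of this gene.

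The remaining beta genes were tub4 and tub7. The signals of tub4 were 1897, 1125 and 1377 in intercropped and 1131, 931 and 1262 in monocropped roots. The groups overlapped, and the log2 difference was 0.38 ± 0.21 (limma adjusted p = 0.56). It was 0.18 without intercropped replicate 1, its highest array. The signals of tub7 were 2661, 2897 and 2960 in intercropped and 2582, 2615 and 2600 in monocropped roots. Here the groups did not overlap although the log2 difference was only 0.13 ± 0.08 (limma adjusted p = 0.623), since the monocropped arrays were nearly equal.

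**Figure D2:**
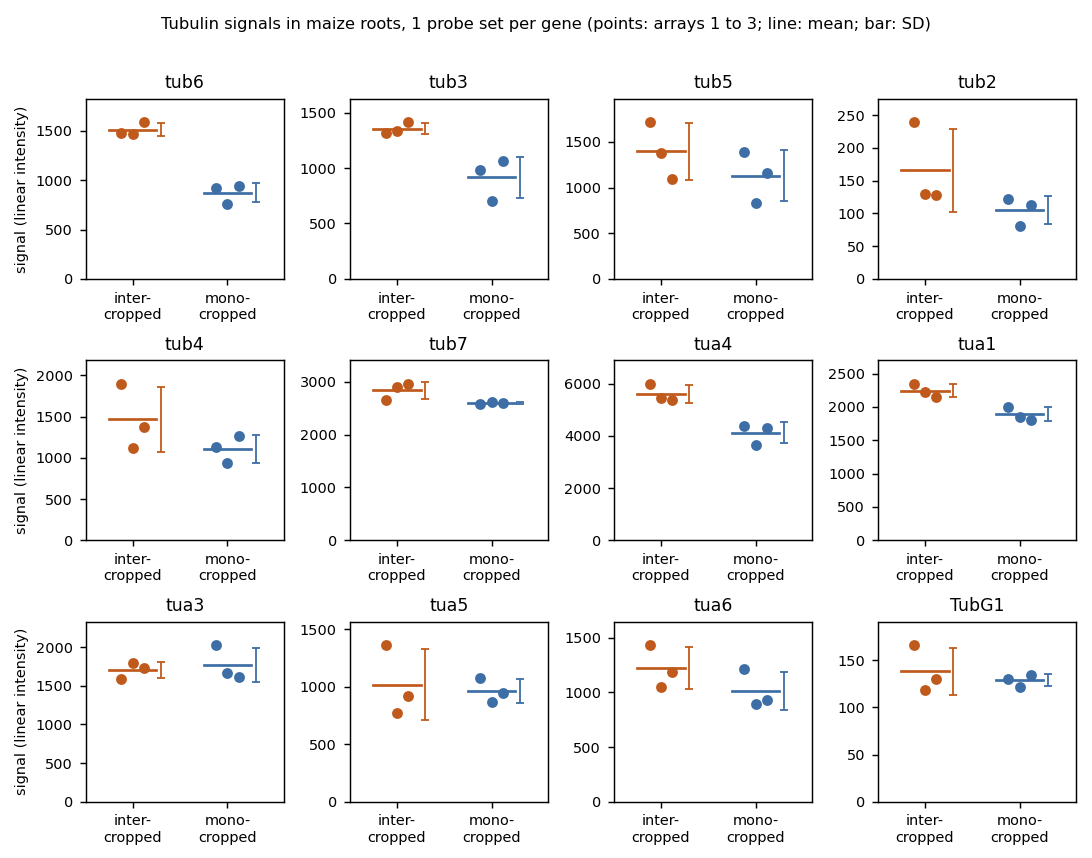
Signal (linear intensity, axis from 0) of the brightest probe set of each of the 12 tubulin genes on the 3 intercropped and the 3 monocropped arrays (points), with group mean (line) and SD (bar). For tub6, tub3, tub2, tub7, tua4 and tua1 all intercropped points lie above all monocropped points, while for the other 6 genes the groups overlap. Over all probe sets tested, 8.29% had all intercropped above all monocropped arrays. The gene tub6 was chosen for its difference.

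Alpha tubulins named by gene showed smaller differences. Of their 8 probe sets 7 were higher and 1 lower in intercropped roots, and the median log2 difference was 0.26, with a range of -0.05 to 0.48. With 1 probe set per gene the median was 0.25 over 5 genes. The alpha range overlapped the beta range, and whether the classes differ was not tested.

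The gene tua4 had the smallest limma p of all tubulins other than tub6. Its brightest probe set had signals of 5991, 5443 and 5383 in intercropped roots, against 4394, 3656 and 4306 in monocropped roots. All intercropped arrays were above all monocropped arrays. The mean was 5605 ± 335 in intercropped and 4118 ± 403 in monocropped roots (SD, n = 3 each). The log2 difference was 0.45 ± 0.10, which limma did not call (adjusted p = 0.219, unadjusted p = 0.00194). A second probe set for tua4, whose probes also match other transcripts, likewise kept the groups apart, with 4045, 3915 and 4095 in intercropped and 3698, 3197 and 3377 in monocropped roots (log2 difference 0.23, limma adjusted p = 0.375). The third was near the filter limit at 76.5, 71.4 and 52.3 in intercropped and 76.4, 34.0 and 40.4 in monocropped roots. Its groups overlapped (log2 difference 0.48, limma adjusted p = 0.637), and its difference ran from 0.25 to 0.83 with 1 array left out, 0.25 being without monocropped replicate 2.

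The gene tua1, listed in the annotation as LOC100037751, had signals of 2346, 2224 and 2155 in intercropped and 2006, 1855 and 1809 in monocropped roots in its brighter probe set. The groups did not overlap, and the log2 difference was 0.25 ± 0.09 (limma adjusted p = 0.385). Its dimmer probe set had 110.1, 176 and 157 in intercropped and 187, 83.4 and 84.5 in monocropped roots, with the highest signal on a monocropped array (log2 difference 0.40, limma adjusted p = 0.721). Leaving out monocropped replicate 2 gave 0.20, and leaving out monocropped replicate 1 gave 0.79.

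The other 3 alpha genes overlapped between the groups. The signals of tua6 were 1433, 1051 and 1186 in intercropped and 1214, 895 and 934 in monocropped roots (log2 difference 0.27, limma adjusted p = 0.608), with 0.15 without intercropped replicate 1. Those of tua5 were 1361, 767 and 919 in intercropped and 1076, 864 and 944 in monocropped roots (log2 difference 0.04, limma adjusted p = 0.961). For tua5 both the highest and the lowest array were intercropped. The signals of tua3 were 1588, 1789 and 1730 in intercropped and 2024, 1667 and 1613 in monocropped roots, the only lower value among the 21 probe sets named by gene, at -0.05 (limma adjusted p = 0.915).

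The gamma tubulin gene TubG1 had 3 probe sets, all of low signal and all with overlapping groups. The brightest had 166, 119 and 130 in intercropped and 130, 122 and 134.2 in monocropped roots. Its log2 difference was 0.09 ± 0.17 (limma adjusted p = 0.886). The other two had log2 differences of 0.11 and 0.23 (limma adjusted p = 0.836 and 0.703), and the median of the 3 was 0.11.

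The probe sets with a tubulin name only as a cluster title were less uniform. Of these 20, 16 were higher and 4 lower, and the median log2 difference was 0.12. In the cluster titled tub6, the member with the largest difference had 427, 253 and 238 in intercropped and 212, 113 and 189 in monocropped roots (log2 difference 0.83 ± 0.31). A companion probe set on the same design sequence had a log2 difference of 0.73 ± 0.25. Both kept the groups apart, and both share an assigned transcript with tub6 probe sets, so they are not independent of the gene chosen for its difference. The other 2 probe sets of this title had log2 differences of 0.17 and 0.23 with overlapping groups.

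In the cluster titled tub7 the values ran the other way. The lowest of its 3 probe sets had 247, 207 and 307 in intercropped roots, against 359, 350.1 and 334 in monocropped roots. All intercropped arrays lay below all monocropped arrays, and the log2 difference was -0.47 ± 0.17 (limma adjusted p = 0.378). The next had 769.8, 559.5 and 599.6 in intercropped and 828, 814 and 766 in monocropped roots (log2 difference -0.33, limma adjusted p = 0.469), and intercropped replicate 1 lay just above the lowest monocropped array. The third had a log2 difference of 0.09. The later annotation puts the lowest of these and the 2 weaker probe sets of the tub6 title in 1 cluster, apart from those of tub6 and tub7.

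One of the 8 alpha cluster titles was the other probe set with the monocropped group on top. Its signals were 1997, 1813 and 2022 in intercropped and 2113, 2364 and 2401 in monocropped roots (log2 difference -0.24 ± 0.10, limma adjusted p = 0.43). The other 7 alpha cluster titles ran from 0.04 to 0.19 in log2 difference, all with overlapping groups. The 5 gamma cluster titles ran from -0.08 to 0.12, and 3 of them share a transcript with each other. AN14, annotated as a gene of another name, had a log2 difference of -0.05.

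The 3 probe sets similar to tubulin-related proteins overlapped between the groups. A transcript similar to a beta-tubulin cofactor, a helper in folding the tubulin pair, had 61.9, 110.0 and 89.9 in intercropped and 68.7, 72.0 and 63.5 in monocropped roots (log2 difference 0.32, limma adjusted p = 0.653). A transcript similar to tubulin-specific chaperone B had a log2 difference of 0.03, and one similar to a tubulin-like protein had 0.15.

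Many tubulin probe sets shared their extremes on 2 arrays. Of the 21 named by gene, 15 had their highest signal on intercropped replicate 1 and 15 had their lowest on monocropped replicate 2, and several of these read the same transcript. Of all 45, 21 (46.7%) were highest on intercropped replicate 1 and 19 (42.2%) lowest on monocropped replicate 2. Another 13 (28.9%) were lowest on monocropped replicate 3. Over all 13116 probe sets tested, 17.1% were highest on intercropped replicate 1 and 16.8% lowest on monocropped replicate 2. On monocropped replicate 3, 8.29% of all probe sets were lowest. For the 21 named by gene, the median log2 signal, each probe set centred on its own mean over the 6 arrays, was 0.37, 0.14 and 0.07 on intercropped replicates 1, 2 and 3, and 0.01, -0.43 and -0.18 on monocropped replicates 1, 2 and 3. Over all 45 it was 0.19, 0.14 and 0.06 in intercropped and 0.01, -0.12 and -0.17 in monocropped roots, with monocropped replicate 3 the lowest. For the beta probe sets it was 0.58, 0.25 and 0.11 in intercropped and -0.08, -0.62 and -0.20 in monocropped roots. For the alpha probe sets it was 0.26, 0.10 and 0.09 in intercropped and 0.14, -0.26 and -0.17 in monocropped roots. Monocropped replicate 1 thus lay within the intercropped range for the alpha class and below it for the beta class.

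**Figure D3:**
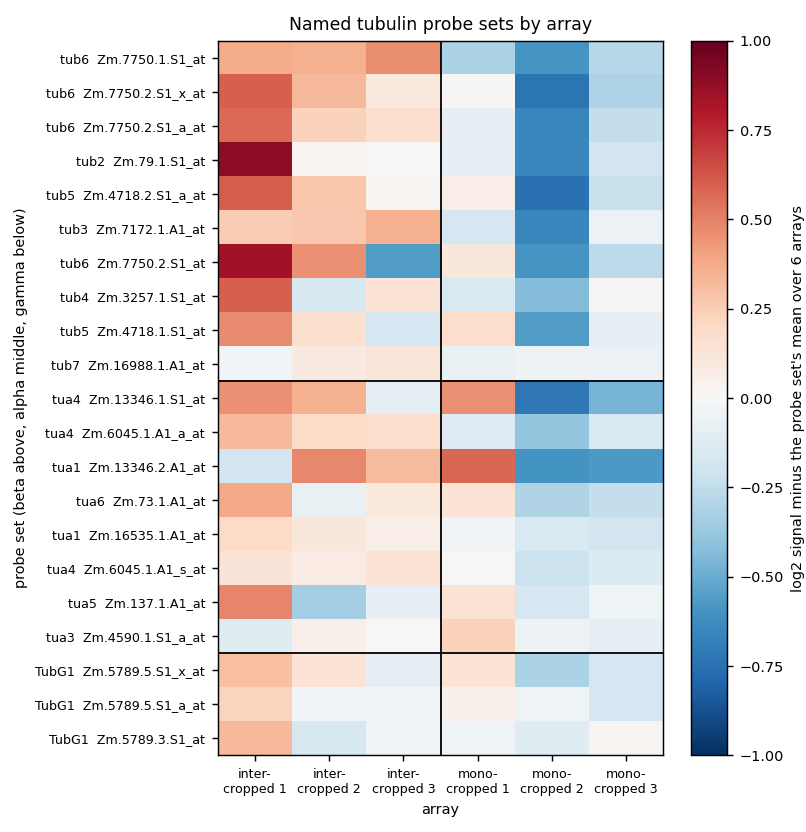
Log2 signal of the 21 tubulin probe sets named by gene (rows, beta above, alpha in the middle, gamma below) on each of the 6 arrays (columns), as the difference from the probe set's mean over the 6 arrays (colour). Monocropped replicate 2 is below the mean in all 21 rows, and intercropped replicate 1 above it in 18.

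Those 2 arrays were picked because most named tubulins had their extremes there, so smaller medians without them follow from the choice. For the 21 probe sets named by gene the median log2 difference was 0.38. It was 0.21 without intercropped replicate 1, 0.23 without monocropped replicate 2 and 0.14 without both. For the 6 beta probe sets other than tub6 it was 0.48 with all arrays, 0.25 without intercropped replicate 1, 0.32 without monocropped replicate 2 and 0.16 without both. Without 1 of the other arrays, the median of all 10 beta probe sets ran from 0.61 to 0.74, beside 0.59 with all. With single arrays left out, tub3 stayed between 0.41 and 0.70.

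Intercropped replicate 1 also stood apart in 1 pair of control probe sets. The ratio of 3′ to 5′ signal, a sign of how intact the RNA was, came to 4.39 for 1 pair of actin controls on that array, against 2.21 and 2.38 on the other intercropped arrays and 2.07 to 2.48 on the monocropped arrays. The other actin pair had 0.0904 on intercropped replicate 1, within the 0.0668 to 0.204 of the other 5 arrays. Its 5′ signals were only 42.9 to 61.4 and its 3′ signals lower still, so its ratios say little about the RNA. The ef1a pair had 3.23, within 2.98 to 3.95, and the ubiquitin pair had 1.52, just above 1.3 to 1.51. Of 7 such pairs on the array, 6 overlapped between the groups. The exception was a gapdh pair at 24.1, 22.0 and 16.3 in intercropped and 12.6, 8.87 and 13.5 in monocropped roots, whose 5′ signals were only 7.98 to 18.8. Monocropped replicate 1 stood apart in hybridisation spikes, control RNAs added to each sample, with bioB at 1120 against 124 to 421 on the other 5 arrays and bioC at 2400 against 375 to 1200. The part of these ratios and spikes in the tubulin differences was not tested. The median signal of the 6 arrays ran from 135 to 142.

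By pattern over the 6 arrays, tub3 was nearest to tub6 of all tubulins. The root mean square distance between their centred log2 signals was 0.136, and tub3 ranked 6th of the 13115 other probe sets, whose median distance was 0.456. The next tubulins of another gene were tua4 at 0.191, which ranked 66th, and then the other isotypes at larger distances. The median distance was 0.307 over the other beta probe sets named by gene and 0.36 over the alpha ones. The beta median includes the further probe sets of tub6 itself, at 0.186, 0.229 and 0.494. Among the 4379 compared probe sets with a gene symbol or protein title and no tubulin name, the nearest 5 lay at 0.139 to 0.158, and none was nearer than tub3.

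All 5 of these nearest probe sets carry only a weak similarity to expressed, putative or hypothetical Arabidopsis proteins with no stated function. The closest had signals of 182, 212 and 198 in intercropped and 96.3, 99.1 and 113 in monocropped roots. Its log2 difference was 0.94, and those of the other 4 were 0.95, 0.88, 0.80 and 0.92. The probe set at 0.88 met the filter through the intercropped arrays alone, so its direction followed from the filter. Restricting the search to titles that say what the protein is, a choice made after the values were seen, gave eif7 (a translation initiation factor) at 0.16, rpl2 (a ribosomal protein) at 0.166 and ERD4 (named for early response to dehydration) at 0.171. The list went on with CesA-9, which codes for an enzyme subunit that spins cellulose, at 0.182 and a cold acclimation protein, COR413-PM1, at 0.184. Distances to tub6 draw on the same contrast for which tub6 was chosen and are a description.

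Genes of related processes were counted in the same way, in lists chosen by name. The 15 measured cellulose synthesis genes had 14 higher and 1 lower in intercropped roots, and the median log2 difference was 0.45, with 0 called. Of the 15, 8 had an unadjusted p under 0.05, all higher, beside 5.60% higher over all probe sets, and for 5 the intercropped arrays lay above all monocropped arrays, beside 8.29%. CesA-9 had signals of 1210, 973 and 893 in intercropped and 718, 594 and 673 in monocropped roots, with no overlap (log2 difference 0.62 ± 0.15, limma adjusted p = 0.238). The gene cesa11, of the same family, had 716, 997 and 849 in intercropped and 684, 399 and 426 in monocropped roots, also with no overlap (log2 difference 0.79 ± 0.23, limma adjusted p = 0.298). The list's centred medians were 0.20, 0.25 and 0.13 in intercropped and 0.13, -0.53 and -0.24 in monocropped roots, so monocropped replicate 2 was the lowest array here too.

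Proteins that bind or move along microtubules had a smaller median than the named tubulins, each gene counted once. The median of the 12 tubulin genes, tub6 included, was 0.29. In the microtubule list, 11 of 16 measured genes were higher and 5 lower, and the median log2 difference was 0.14, with 0 called. Kinesins are motors that carry cargo along microtubules. The kinesin gene kin16 had 84.9, 88.4 and 51.0 in intercropped and 47.5, 33.9 and 49.95 in monocropped roots (log2 difference 0.75 ± 0.27, limma adjusted p = 0.383). It met the filter of 50 on at least 3 arrays through the intercropped arrays alone. Its direction and its lack of overlap therefore followed from the filter. A kinesin heavy chain gene, KIN6, had 634, 609 and 530 in intercropped and 573, 310 and 346 in monocropped roots (log2 difference 0.58 ± 0.24, limma adjusted p = 0.43). The median was 0.32 without intercropped replicate 3 and -0.005 without intercropped replicate 1. The tubulin folding list had 1 measured gene beyond the members, similar to prefoldin subunit 2, at 0.04.

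The actin cytoskeleton, the other filament system of the cell, had 10 of 13 genes higher and 3 lower, and the median log2 difference was 0.15, with 0 called. Myosins are motors on actin, and the myosin gene zmm3 had a log2 difference of 0.27 ± 0.14 at a limma adjusted p of 0.529. A transcript similar to an actin-like protein had 0.52 ± 0.27 (limma adjusted p = 0.532). The actin median was 0.06 without intercropped replicate 1 or 2, and 0.24 without intercropped replicate 3.

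The cell division list, of histones, cyclins and genes of DNA replication, had a median below 0. Many of its members are histones, so the list is not a measure of division alone. Of the others, cyc3 was at 0.15, a cdc2 kinase at 0.11, MCM6 at -0.08 and pcna1 at -0.37. Of 30 genes 12 were higher and 18 lower, and the median log2 difference was -0.09, with 0 called. A transcript similar to histone H3.3, a core protein of chromatin, had 2876, 2975 and 2972 in intercropped and 3433, 3547 and 3690 in monocropped roots. Its groups did not overlap (log2 difference -0.27 ± 0.07, limma adjusted p = 0.287). The centromeric histone gene cenH3 had 0.62 ± 0.37 (limma adjusted p = 0.605), with overlapping groups. The median was 0.02 without intercropped replicate 3.

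**Figure D4:**
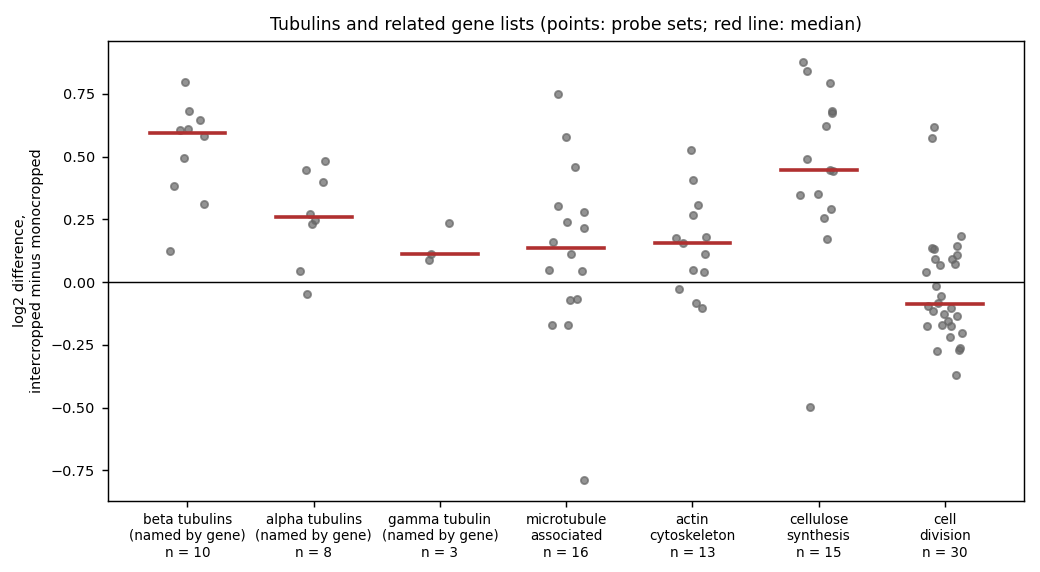
Log2 difference in signal, intercropped minus monocropped, of each probe set (points) in the 3 tubulin classes named by gene and in 4 related gene lists, with the median of each (red line). The medians are 0.59 for beta, 0.26 for alpha and 0.11 for gamma tubulins, 0.14 for microtubule-associated genes, 0.15 for actin genes, 0.45 for cellulose synthesis and -0.09 for cell division. The 4 lists count each gene once, while the tubulin classes count every probe set. The beta points include 4 probe sets of tub6, which was chosen for its difference. With 1 probe set per gene the medians are 0.38 for beta without tub6, 0.25 for alpha and 0.09 for gamma.

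Markers of the tissues that root samples might hold overlapped between the groups in their summed signals. The 9 probe sets of root markers summed to 1581 to 2297 in intercropped and 1876 to 2691 in monocropped roots. They were of genes named for roots, of ys1 (yellow stripe1) and of a transcript similar to nicotianamine synthase. The 27 of photosynthesis genes summed to 3994 to 4963 against 4236 to 6446, and the 7 with a pollen title to 5287 to 6540 against 5352 to 5669. The photosynthesis sum of 6446 was that of monocropped replicate 2, the array on which most named tubulins were lowest. On that array 3 of the 4 probe sets of pdk1, a dikinase of photosynthesis, had 698, 538 and 511, against 61.8 to 225 on the other 5 arrays. Another photosynthesis probe set had 340 against 41.6 to 163. The high sum came mainly from these probe sets. The remaining pdk1 probe set had 65.6 there, against 38.8 to 100 on the other 5 arrays. A probe set of ssu1 had 245 against 205 to 284, and one of Cab-m7 had 315 against 135 to 290. The 60 of the cell division list summed to 38320 to 46010 against 40930 to 47940. None of these markers was under a signal of 50 on all arrays. The filter fixed this in advance, since names came from the authors' filtered table and dimmer markers could not enter. By gene, 2 of 7 root markers were higher and 5 lower (median -0.27, and -0.05 without intercropped replicate 3). Among them were rcph2, a root cap gene, at 1.00 ± 0.43 and a glycine-rich root cap protein at -0.82 ± 0.45 (limma adjusted p = 0.449 and 0.561). For 1 of the 7, ys1, all monocropped arrays lay above all intercropped arrays (log2 difference -0.37), beside 8.69% of all probe sets. Of 14 photosynthesis genes 6 were higher and 8 lower (median -0.02, between -0.24 and 0.10 with 1 array left out), with ycf3, an assembly factor of photosystem I, at 0.78 ± 0.28 and pdk1 at -1.50 ± 0.54 (limma adjusted p = 0.383 and 0.384). Of 3 pollen titles 2 were higher and 1 lower, the first pair by p at -0.94 ± 0.34 and 0.36 ± 0.27 (limma adjusted p = 0.384 and 0.676). The part of cell makeup in the tubulin differences, and in the low values on monocropped replicate 2, was not tested.

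Beside limma, the authors' deposited table gives q-values between 9.06% and 78.9% for the 45 tubulins. The lowest apart from the tub6 gene was 20.9%, that of tua4. Of the 12252 probe sets with a q-value in the authors' deposited table, 5 were under 5%, and none of these was a tubulin.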

How the data were processed

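Signals are the deposited intensities per probe set, which the authors had summarised and scaled before deposit. The submitters' processing notes name GCOS 1.4, and which summary algorithm and scaling target were used is not stated there, nor in any other source used. The deposited log2 table of the authors equalled log2 of these intensities. Per the file headers, the authors' SAM table (unpaired, 2 classes) gives a score, a fold change as a ratio and a q-value as a percent.

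Controls (179) were left out, intensities under 1 were set to 1, and probe sets at 50 or more on at least 3 of 6 arrays were tested with limma 3.58.1 in R 4.3.3 (lmFit, eBayes with trend=TRUE, two-sided, Benjamini-Hochberg over 13116). The step was tested on simulated data. The number of arrays limits precision (median SE of a log2 difference 0.175). Mean signals are arithmetic.

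All tubulins, the 2 smallest p of each other list and the 5 patterns nearest to tub6 were named. Other lists count a gene once, by its brightest probe set; 14 matches were removed by name. Members and lists were chosen with earlier results of these data known. RefSeq (Zm-B73-REFERENCE-NAM-5.0) matched 19 of 22 members with a gene ID and gave names only.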

Additional observations from a re-analysis of the deposited data

How the results depend on the processing

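The count of 39 tubulins higher in intercropped roots stayed between 36 and 40 with 1 array left out. It was 11 of 12 with 1 probe set per gene and 20 of 21 for probe sets named by gene, which are smaller sets. The alpha median ran from 0.20 to 0.35 and the beta median from 0.38 to 0.74 with 1 array left out. Adding cluster titles gave 0.18 for alpha and 0.49 for beta. The restriction to named probe sets, the cluster titles, the median without tub6, the medians with 1 probe set per gene and the values without both arrays were chosen after seeing the data.

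Limma called 0 tubulins under every alternative run. Over all probe sets it called 0 (1457, or 11.1%, at an unadjusted p under 0.05), 1 with log2 of the signal plus 32, and between 0 and 34 with 1 array left out, 34 being without intercropped replicate 1. By the authors' SAM q-value under 5%, 5 were called. The cause was not tested.

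The main fit did not pair samples by replicate number. Deviations of same-numbered arrays correlated at 0.268, -0.0692 and -0.00411, and those of arrays with unlike numbers at -0.3 to 0.335. With 3 arrays per group these values cannot show whether the samples were paired. With the replicate number as a block, 0 probe sets were called, 39 tubulins were higher and limma's lowest adjusted p of a tubulin other than tub6 was 0.242, that of tua4.

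Some differences near 0 changed sign with 1 array left out. These were tua5 (-0.19 to 0.22), tua3 (-0.11 to 0.0526), the brightest probe set of TubG1 (-0.0531 to 0.19) and the transcript similar to tubulin-specific chaperone B (-0.0819 to 0.11, and -0.0065 with array medians set equal). Among cluster titles they were 2 alpha probe sets (-0.0332 to 0.10 and -0.0123 to 0.12), 1 of the tub7 title (-0.0027 to 0.13) and 2 gamma probe sets (-0.13 to 0.46 and -0.18 to 0.0046).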
